A study of Mus musculus with 12 samples.

Results

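The CC chemokine genes clustered on mouse chromosome 11 were followed in cultured microglia, the resident macrophages of the brain. They are Ccl2, Ccl3, Ccl4, Ccl5, Ccl6, Ccl7, Ccl9 and Ccl12, 8 genes of the 46262 in the deposited table, taken by symbol without regard to their values. Primary microglia of wild-type mice were grown in mixed glial cultures of cerebellum or forebrain and then kept for 24 hours with IL-34 at 100 ng/ml or CSF-1 at 20 ng/ml, the cytokines that both signal through the receptor Csf1r. The groups, with 3 libraries each from independent cultures, were cerebellum with IL-34, cerebellum with CSF-1, forebrain with IL-34 and forebrain with CSF-1. All 12 libraries received a ligand, and the ligands were given at different doses. The deposited table is named for neonatal microglia, and exact ages are not given in the labels. Values are transcript abundances scaled to a common total (TPM), summed per gene, and every library adds up to 1000000.

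Chemokines are small secreted proteins that attract leukocytes by binding G protein-coupled receptors, and the CC class is named for adjacent cysteines near the start of the mature protein. In the mouse, Ccl2, Ccl7 and Ccl12 are ligands of Ccr2, the receptor that brings inflammatory monocytes to tissues. Ccl3, Ccl4 and Ccl5 attract macrophages and T cells, Ccl3 and Ccl5 among others through Ccr1, while Ccl6 and Ccl9 are rodent chemokines that act through Ccr1. Microglia are a well-known source of Ccl2, Ccl3 and Ccl4 in the brain.

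The genes lie in 2 blocks on chromosome 11 of the GRCm38 assembly. On the plus strand, Ccl2 occupies 82035571 to 82037453, Ccl7 follows 10.1 kb after the start of Ccl2, and Ccl12 follows 66.3 kb after it. The other block begins with Ccl5, whose left end lies 1490.2 kb from the start of Ccl2, and continues with Ccl9, Ccl6 and Ccl3 on the minus strand and Ccl4 on the plus strand. For 7 of the genes, the stretches of coding sequence that hold the adjacent cysteine codons, in capitals, are shown because they mark the class; each lies within 1 exon of the main coding transcript in GENCODE M21.
Ccl2 (chr11:82036491-82036526, plus strand): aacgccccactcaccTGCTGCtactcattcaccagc
Ccl7 (chr11:82046523-82046558, plus strand): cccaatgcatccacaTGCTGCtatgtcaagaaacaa
Ccl12 (chr11:82102619-82102654, plus strand): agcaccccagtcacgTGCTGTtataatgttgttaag
Ccl4 (chr11:83663467-83663502, plus strand): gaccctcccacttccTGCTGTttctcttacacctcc
Ccl5 (chr11:83529227-83529262, minus strand): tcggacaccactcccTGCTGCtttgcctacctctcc
Ccl6 (chr11:83589371-83589406, minus strand): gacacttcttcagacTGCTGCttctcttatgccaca
Ccl9 (chr11:83575911-83575946, minus strand): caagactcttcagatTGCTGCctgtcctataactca
The second cysteine codon of the pair is TGT in Ccl4 and Ccl12 and TGC in the other 5 shown. Over the coding sequence, Ccl2 and Ccl7 were the most alike of the 28 pairs, with 72.1% identity over 287 aligned bases, followed by Ccl3 and Ccl4 with 71.1% over 270 and Ccl6 and Ccl9 with 70.7% over 341. The transcripts of Ccl2, Ccl7, Ccl12, Ccl3 and Ccl4 shared no stretch of 31 bases with a transcript of any other gene. Ccl9-201 shared 4.03% of its 31-base stretches with transcripts of other genes, Ccl6-201 shared 1.28% and Ccl5-202 shared 0.784%, and the other Ccl5, Ccl6 and Ccl9 transcripts shared none.

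Most of these transcripts are short, and the libraries differed in how well they held short transcripts. Each library was given a length floor, the 1st percentile of transcript length among its transcripts of at least 5 TPM. This floor was 503, 491 and 580 nt in cerebellum with IL-34, 661, 599 and 592 nt in cerebellum with CSF-1, 669, 632 and 621 nt in forebrain with IL-34, and 621, 598 and 669 nt in forebrain with CSF-1. Of the 14 annotated transcripts of the 8 genes, 11 were above 0 in at least 1 library. Per library, 11, 11 and 11 were above 0 in cerebellum with IL-34, 8, 9 and 11 in cerebellum with CSF-1, 8, 9 and 8 in forebrain with IL-34, and 9, 11 and 8 in forebrain with CSF-1. The 3 listed at 0 everywhere were Ccl12-202 of 481 nt, Ccl6-203 of 442 nt and Ccl9-202 of 398 nt. Rpl37a, which encodes a ribosomal protein that every cell uses, was also listed at 0 in some libraries, and a value of 0 is therefore given as listed, not as absence.

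Within the cluster the levels, which TPM gives per transcript length, spanned a wide range. Ccl9 had the highest median over the 12 libraries at 251 TPM (range 219 to 288), followed by Ccl3 at 139 TPM (112 to 168). Ccl5 had a median of 74.1 TPM with the widest range of the genes detected throughout, 11.6 to 267. Ccl4 had 72.8 TPM (46.8 to 106), Ccl2 35.5 TPM (16.1 to 85.8), Ccl6 29.1 TPM (22.3 to 40.8) and Ccl7 15.1 TPM (7.59 to 39.4). The ranges of Ccl9 and Ccl3 did not overlap, while all other neighbours in this order overlapped in range. Ccl12 was above 0 in 5 libraries and never exceeded 5.01 TPM. The remaining CC chemokine genes of the cluster, Ccl1, Ccl8 and Ccl11, did not reach the level needed for testing, and the highest value among them was 2.42 TPM for Ccl8.

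**Figure D1:**
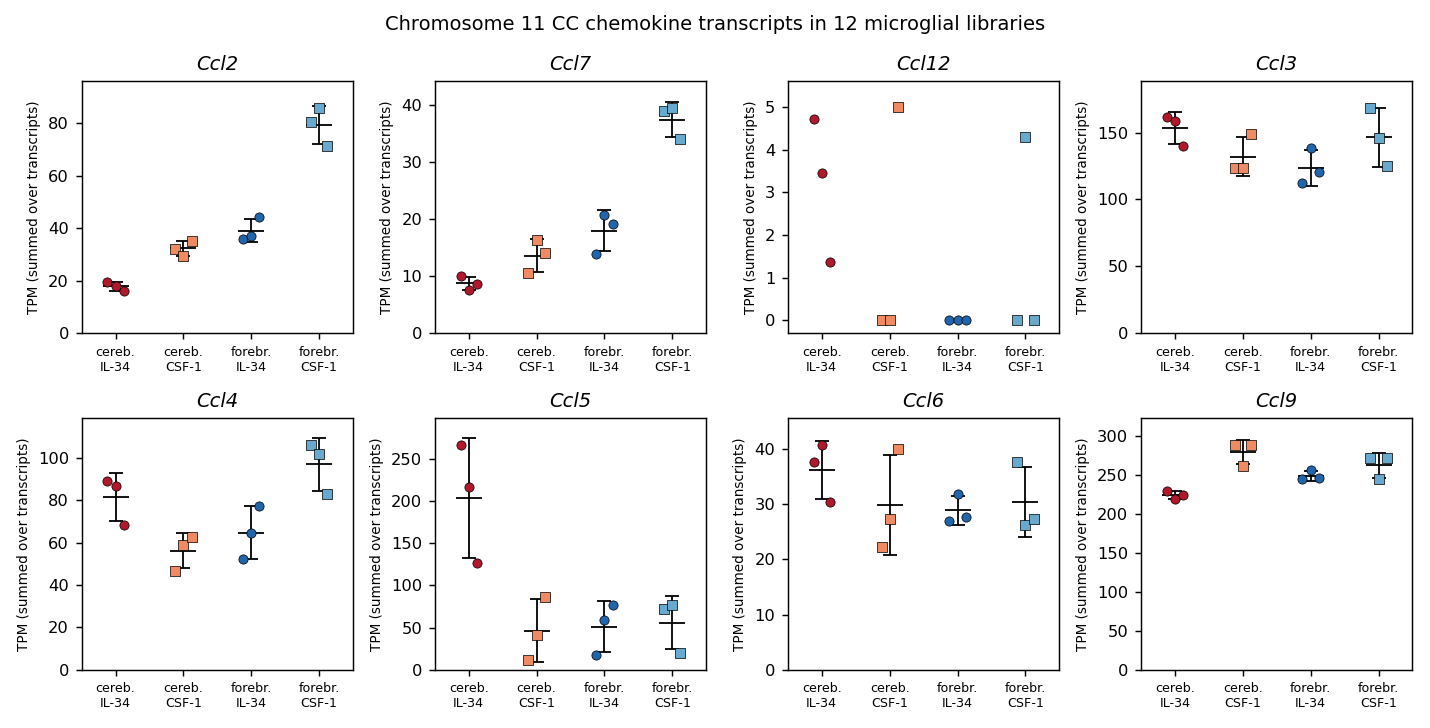
TPM of each of the 8 genes in every library, with cerebellum left of forebrain and IL-34 left of CSF-1. Points are libraries and bars are the group mean and SD (n = 3), left out for Ccl12, which is listed at 0 in 7 libraries. Ccl2 and Ccl7 are highest in forebrain with CSF-1 (71.4 to 85.8 and 33.9 to 39.4 TPM), and Ccl5 is highest in cerebellum with IL-34 (127 to 267 TPM).

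Ccl2 and Ccl7, the monocyte attractants of the plus-strand block, were lower with IL-34 than with CSF-1 and lower in cerebellum than in forebrain. Ccl2 had 19.5, 18.0 and 16.1 TPM in cerebellum with IL-34 and 32.2, 29.5 and 35.1 TPM in cerebellum with CSF-1. In forebrain it had 35.8, 37.1 and 44.2 TPM with IL-34 and 80.4, 85.8 and 71.4 TPM with CSF-1. No library overlapped between ligands within a region or between regions under the same ligand. Ccl7 had 9.96, 7.59 and 8.58 TPM in cerebellum with IL-34 and 10.5, 16.2 and 13.9 TPM in cerebellum with CSF-1, against 13.9, 20.7 and 19.2 TPM in forebrain with IL-34 and 38.8, 39.4 and 33.9 TPM in forebrain with CSF-1. Its groups did not overlap in any of these 4 comparisons either, although in cerebellum the highest IL-34 library lay close to the lowest CSF-1 library. Of all genes tested, 18.5% did not overlap between ligands in forebrain and 36.2% in cerebellum. Between regions, 29.4% did not overlap under CSF-1 and 32.9% under IL-34.

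The question of how the ligands differ was tested with limma on log2(TPM + 1) over 12419 genes, with Benjamini-Hochberg adjustment and a threshold of 0.05 on the adjusted p, and all fold changes below are on that scale. In forebrain, 1.2% of all genes tested passed in either direction and 0.773% were lower with IL-34, and among the 8 chemokines these were Ccl2 and Ccl7. Ccl2 averaged 39.0 ± 4.52 TPM with IL-34 and 79.2 ± 7.26 TPM with CSF-1 (mean ± SD, n = 3 each, as for all means here), a log2 fold change of -1.004 (SE 0.106, adjusted p = 0.00369, limma). Ccl7 averaged 17.9 ± 3.57 TPM with IL-34 and 37.4 ± 3.00 TPM with CSF-1, a log2 fold change of -1.03 (SE 0.17, adjusted p = 0.0162, limma). The Ccl7 difference no longer passed without the first or the second forebrain library with CSF-1 (adjusted p = 0.0521 and 0.0766, limma), while its log2 fold change stayed between -1.14 and -0.87 over all libraries left out. Fitted on the 6 forebrain libraries alone, neither gene passed (adjusted p = 0.0823 for Ccl2 and 0.0997 for Ccl7, limma), and nor did any other of the 12419 genes in that fit. These are bulk libraries, in which fewer cells that express a gene and less RNA per cell cannot be told apart.

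In cerebellum, 12.8% of all genes passed in either direction and 9.82% were lower with IL-34, and Ccl2 and Ccl9 were among them. Over all genes 373 were higher and 1220 lower, a split that median-of-ratios scaling moved to 693 higher and 505 lower. Ccl2 averaged 17.8 ± 1.71 TPM with IL-34 and 32.3 ± 2.84 TPM with CSF-1, a log2 fold change of -0.82 (SE 0.106, adjusted p = 0.00228, limma). Ccl7 averaged 8.71 ± 1.19 TPM with IL-34 and 13.6 ± 2.89 TPM with CSF-1, and its log2 fold change of -0.57 missed the threshold by a narrow margin (SE 0.17, adjusted p = 0.05003, limma). With the trends of transcript length and GC content removed from each library, it was -0.87 and passed (adjusted p = 0.00249, limma). This was the lowest adjusted p of the 17 alternative settings, and the Ccl7 difference passed in 8 of them. Over the 17, its log2 fold change lay between -0.90 and -0.43. It did not pass under median-of-ratios scaling or with the length floor as a covariate. Over the mean of both regions, where 13.4% of all genes passed and 10.7% were lower, both genes passed, Ccl2 with -0.91 (SE 0.0747, adjusted p = 7.72e-05, limma) and Ccl7 with -0.80 (SE 0.12, adjusted p = 0.00234, limma). The 9 heat shock and dissociation genes summed to 2736 to 2949 TPM in cerebellum with IL-34 and 3296 to 3442 TPM in cerebellum with CSF-1, and to 2690 to 2955 TPM in forebrain with IL-34 and 3068 to 3354 TPM in forebrain with CSF-1, without overlap between ligands, and their part in the ligand differences was not tested. These sums are mostly Hspa8 and Hsp90ab1, of which Hsp90ab1 was lower with IL-34 in cerebellum (log2 fold change -0.51, adjusted p = 0.00720, limma) and Hspa8 was lower with IL-34 in cerebellum (log2 fold change -0.25, adjusted p = 0.0159, limma) and in forebrain (-0.27, adjusted p = 0.0420, limma). Egr1, an immediate early gene of the same list, was higher with IL-34 in cerebellum (0.65, adjusted p = 0.0122, limma) and in forebrain (0.64, adjusted p = 0.04005, limma), and Fos and Jun did not pass.

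Ccl2 and Ccl7 were also compared between regions, and the sizes of the regional and ligand differences were not tested against each other. Under CSF-1, where 6.71% of all genes passed and 3.42% were lower in cerebellum, Ccl2 had a log2 fold change of -1.27 (SE 0.106, adjusted p = 5.28e-05, limma) and Ccl7 of -1.42 (SE 0.17, adjusted p = 0.000744, limma). Under IL-34, where 13.5% of all genes passed and 8.22% were lower in cerebellum, Ccl2 had -1.09 (SE 0.106, adjusted p = 0.000121, limma) and Ccl7 had -0.95 (SE 0.17, adjusted p = 0.0047, limma). The comparisons share groups and are therefore not independent of one another. Without the 2 libraries of lowest length floor, which leaves a single library of cerebellum with IL-34 that is assumed to vary like the others, the Ccl7 difference under IL-34 kept its size at -0.96 and no longer passed (adjusted p = 0.112, limma). Markers of astrocytes moved with region: the 9 markers, none of them at 0 in all libraries, summed to 15.7 to 20.98 TPM in cerebellum and 31.4 to 35.6 TPM in forebrain, and 4 of the 8 that could be tested were lower in cerebellum under either ligand. The 7 fibroblast and mural cell markers summed to 3.11 to 5.01 TPM in cerebellum and 7.05 to 12.02 TPM in forebrain. The largest part of each sum was Acta2, at 1.53 to 2.79 TPM in cerebellum and 5.63 to 9.48 TPM in forebrain. Of the 2 markers that could be tested, 1 was lower in cerebellum under either ligand. Col1a2, below the level for testing, went the other way, at 0.319 to 0.981 TPM in cerebellum and 0.0228 to 0.429 TPM in forebrain. The part of astrocytes and of fibroblasts and mural cells in the regional difference of Ccl2 and Ccl7 was not tested. The 4 monocyte markers together reached at most 0.901 TPM and the 6 neutrophil markers at most 0.603 TPM in any library, and 1 and 2 of them were at 0 throughout.

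Ccl2, summed over its transcripts, and Ccl7 kept a similar proportion across the groups. The ratio of Ccl2 to Ccl7, both per length, averaged 2.07 ± 0.271 with IL-34 and 2.47 ± 0.629 with CSF-1 in cerebellum, and 2.22 ± 0.396 with IL-34 and 2.12 ± 0.0544 with CSF-1 in forebrain. Of all named genes tested, the pattern nearest to that of Ccl7 over the 12 libraries was that of Ccl2, with Pearson's r of 0.96 on the log2 scale. Nearest to Ccl2 were Alox5ap, which encodes the activating protein of 5-lipoxygenase, with r of 0.99, then Raet1d and Carhsp1, both with r of 0.97. The 12 libraries fall into 4 groups, so these values hold both the group differences and the spread within groups.

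**Figure D2:**
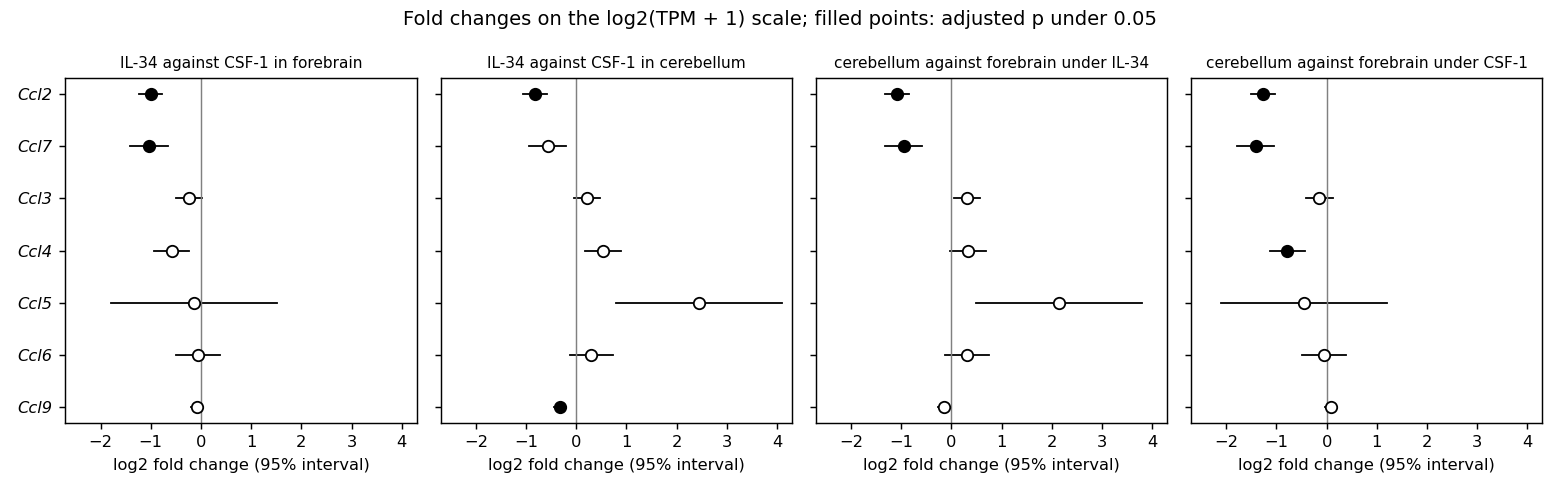
Log2 fold changes on the log2(TPM + 1) scale with 95% intervals from limma for 7 genes, with 1 panel for each comparison; the first group named is over the second. Filled points passed an adjusted p of 0.05. Ccl2 lies between -1.27 and -0.82 in all 4 panels, while Ccl4 is at 0.53 in cerebellum and -0.58 in forebrain between ligands. Ccl12 is left out because it is listed at 0 in 7 libraries.

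Because the groups differed in length floor, libraries of nearly equal floor (within 15 nt) were also set side by side. In forebrain, the first IL-34 library and the third CSF-1 library shared a floor of 669 nt and had 35.8 and 71.4 TPM of Ccl2 and 13.9 and 33.9 TPM of Ccl7. The third IL-34 library and the first CSF-1 library of forebrain shared a floor of 621 nt and had 44.2 and 80.4 TPM of Ccl2 and 19.2 and 38.8 TPM of Ccl7. In cerebellum, the third IL-34 library (580 nt) and the third CSF-1 library (592 nt) had 16.1 and 35.1 TPM of Ccl2 and 8.58 and 13.9 TPM of Ccl7. Between regions under CSF-1, the first cerebellar library (661 nt) and the third forebrain library (669 nt) had 32.2 and 71.4 TPM of Ccl2 and 10.5 and 33.9 TPM of Ccl7. The 7 such pairs share some libraries. Over all of them, the ratio of the first to the second library lay between 0.343 and 0.550 for Ccl2 and between 0.309 and 0.616 for Ccl7. No such pair existed between regions under IL-34. These pairs were picked after the values had been seen and carry no test. The groups of Ccl2 and Ccl7 did not overlap in these comparisons, so any pair across them would show the same direction whatever the floors.

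The Ccl2 reads were assigned to a pair of transcripts, and the balance between them varied between libraries. Ccl2-201 (813 nt) is the spliced coding transcript, and Ccl2-202 (1096 nt) is annotated as a retained-intron transcript that keeps all 325 bases of the intron between the exons joined below. The junctions of Ccl2 and Ccl5 are shown because they tell the paired transcripts apart, with intron bases in capitals.
Ccl2-201, exons joined: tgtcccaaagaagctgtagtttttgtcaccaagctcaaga
Ccl2-202, intron kept (chr11:82036581-82036620, plus strand): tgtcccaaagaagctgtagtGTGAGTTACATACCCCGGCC
Ccl5-201, exons joined: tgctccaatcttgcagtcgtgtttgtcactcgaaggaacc
Ccl5-202, intron kept (chr11:83529136-83529175, minus strand): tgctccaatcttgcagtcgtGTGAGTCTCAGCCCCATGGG
Ccl2-202 had 3.795, 2.606 and 5.65 TPM in cerebellum with IL-34 and 22.3, 11.1 and 13.3 TPM in cerebellum with CSF-1, without overlap. In forebrain it had 28.8, 28.3 and 20.4 TPM with IL-34 and 49.1, 33.3 and 57.9 TPM with CSF-1, again without overlap. Of all genes tested, 36.2% did not overlap between ligands in cerebellum and 18.5% in forebrain, and the share over transcripts was not computed. Ccl2-201 had 15.7, 15.4 and 10.4 TPM in cerebellum with IL-34 and 9.95, 18.3 and 21.8 TPM in cerebellum with CSF-1, and 7.03, 8.88 and 23.8 TPM in forebrain with IL-34 and 31.3, 52.5 and 13.5 TPM in forebrain with CSF-1. The coding transcript thus overlapped between ligands in both regions and between regions under both ligands.

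With coding transcripts alone, Ccl2 did not pass in any comparison between ligands or regions. Its log2 fold change for IL-34 against CSF-1 was -0.21 in cerebellum (adjusted p = 0.793, limma) and -1.22 in forebrain (adjusted p = 0.254, limma). For cerebellum against forebrain it was -0.79 under CSF-1 (adjusted p = 0.36, limma) and 0.22, of the opposite sign, under IL-34 (adjusted p = 0.802, limma). The retained share of Ccl2 ranged from 14.4 to 35.2% in cerebellum with IL-34, 37.8 to 69.1% in cerebellum with CSF-1, 46.1 to 80.3% in forebrain with IL-34 and 38.8 to 81.1% in forebrain with CSF-1. Within each of the 4 groups the highest share was in the library of highest length floor, and the part of transcript length in this balance was not tested. Ccl7 has a single transcript in the table, coding and 801 nt long, so its calls do not rest on such a split. In cerebellum, Ccl2-201 averaged above Ccl7, at 13.8 against 8.71 TPM with IL-34 and 16.7 against 13.6 TPM with CSF-1. In forebrain Ccl2-201 averaged below Ccl7, at 13.2 against 17.9 TPM with IL-34 and 32.4 against 37.4 TPM with CSF-1. The similar proportion to Ccl7 given above is that of Ccl2 summed over its transcripts.

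**Figure D3:**
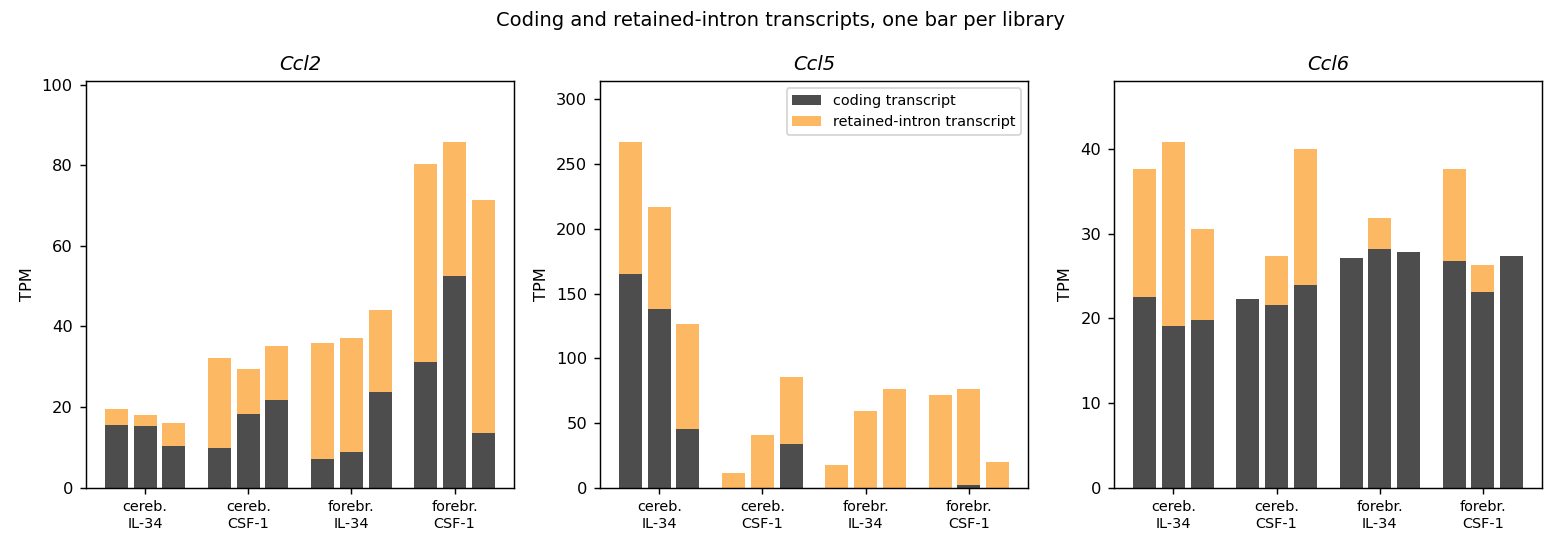
TPM of the coding and retained-intron transcripts of Ccl2, Ccl5 and Ccl6, stacked, with 1 bar for each library in replicate order within its group. The coding transcript of Ccl5 is above 0 in 5 libraries and reaches 165 TPM in cerebellum with IL-34. The retained-intron transcript of Ccl2 is at 2.61 to 5.65 TPM in cerebellum with IL-34 and at 11.1 TPM or more in each of the other 9 libraries.

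Ccl12, the third Ccr2 ligand of the block, was near the limit of detection. It had 4.72, 3.46 and 1.36 TPM in cerebellum with IL-34, 0, 0 and 5.01 TPM in cerebellum with CSF-1, 0 in each of the 3 forebrain libraries with IL-34, and 0, 4.302 and 0 TPM in forebrain with CSF-1. All of this came from Ccl12-201, a coding transcript of 537 nt. It passed in none of the 6 comparisons, and no fold change is given because forebrain with IL-34 is listed at 0 as a whole. Its 5 libraries above 0 were the same 5 in which the coding transcript of Ccl5, of 532 nt, was above 0, and they had the 5 lowest length floors, from 491 to 598 nt.

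Ccl5, which attracts T cells and monocytes among others through Ccr1, showed the widest spread. It had 267, 216 and 127 TPM in cerebellum with IL-34 and 11.6, 40.7 and 85.8 TPM in cerebellum with CSF-1. In forebrain it had 17.6, 59.2 and 76.5 TPM with IL-34 and 71.9, 76.4 and 19.7 TPM with CSF-1. The 3 libraries of cerebellum with IL-34 lay above all others, and the remaining groups overlapped. In cerebellum, the log2 fold change of IL-34 over CSF-1 was 2.45 (SE 0.75, adjusted p = 0.0542, limma), and for cerebellum against forebrain under IL-34 it was 2.14 (SE 0.75, adjusted p = 0.0823, limma), so neither passed. The ligand comparison passed without the first forebrain library with IL-34 (adjusted p = 0.0416, limma), the third forebrain library with CSF-1 (0.0451) or the third cerebellar library with CSF-1 (0.0365), and the regional one without the first cerebellar library with CSF-1 (0.0467). Under CSF-1 the regional log2 fold change was -0.45 (SE 0.75, adjusted p = 0.772, limma), and between ligands in forebrain it was -0.14 (SE 0.75, adjusted p = 0.964, limma).

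The level of Ccl5 moved with the length floor. Its coding transcript Ccl5-201 (532 nt) had 165, 138 and 45.6 TPM in cerebellum with IL-34, 33.9 TPM in the third library of cerebellum with CSF-1 and 2.24 TPM in the second library of forebrain with CSF-1, and was listed at 0 in the other 7. Of all 1085 coding transcripts of 500 to 549 nt, 23.5, 25.99 and 5.25% were above 0 in the libraries of cerebellum with IL-34, and at most 2.58% in each of the others. Its retained-intron transcript Ccl5-202 (668 nt), which holds 428 bases of an intron of 3091, was detected in all 12 libraries. It had 102, 78.6 and 81.2 TPM in cerebellum with IL-34 and 11.6, 40.7 and 51.8 TPM in cerebellum with CSF-1, against 17.6, 59.2 and 76.5 TPM in forebrain with IL-34 and 71.9, 74.1 and 19.7 TPM in forebrain with CSF-1. Its 3 lowest values, 11.6, 17.6 and 19.7 TPM, were in the 3 libraries with floors of 661 to 669 nt. With the length floor as a covariate, the log2 fold change of Ccl5 was 0.17 between ligands in cerebellum (adjusted p = 0.937, limma) and -0.71 between regions under IL-34 (adjusted p = 0.708, limma). With coding transcripts alone it was 4.97 (adjusted p = 0.0177, limma) and 6.68 (adjusted p = 0.00301, limma) in the same comparisons, in which 2 of 3 and 3 of 3 libraries on the lower side are listed at 0, so neither value measures the size of a difference. The 6 markers of border-associated macrophages had sums of 2142 to 2392 TPM in cerebellum with IL-34, 1724 to 2001 TPM in cerebellum with CSF-1, 1735 to 2043 TPM in forebrain with IL-34 and 1676 to 1858 TPM in forebrain with CSF-1, and their part in the Ccl5 level was not tested. Most of each sum was Ms4a7, at 1591 to 2285 TPM over the 12 libraries. Mrc1, the mannose receptor, was lower in cerebellum than in forebrain under IL-34 at 25.5 TPM, against 35.3 TPM (log2 fold change -0.45, adjusted p = 0.00426, limma). At a shared floor of 669 nt, the first forebrain library with IL-34 and the third with CSF-1 had 17.6 and 19.7 TPM. At 621 nt, the third with IL-34 and the first with CSF-1 had 76.5 and 71.9 TPM.

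**Figure D4:**
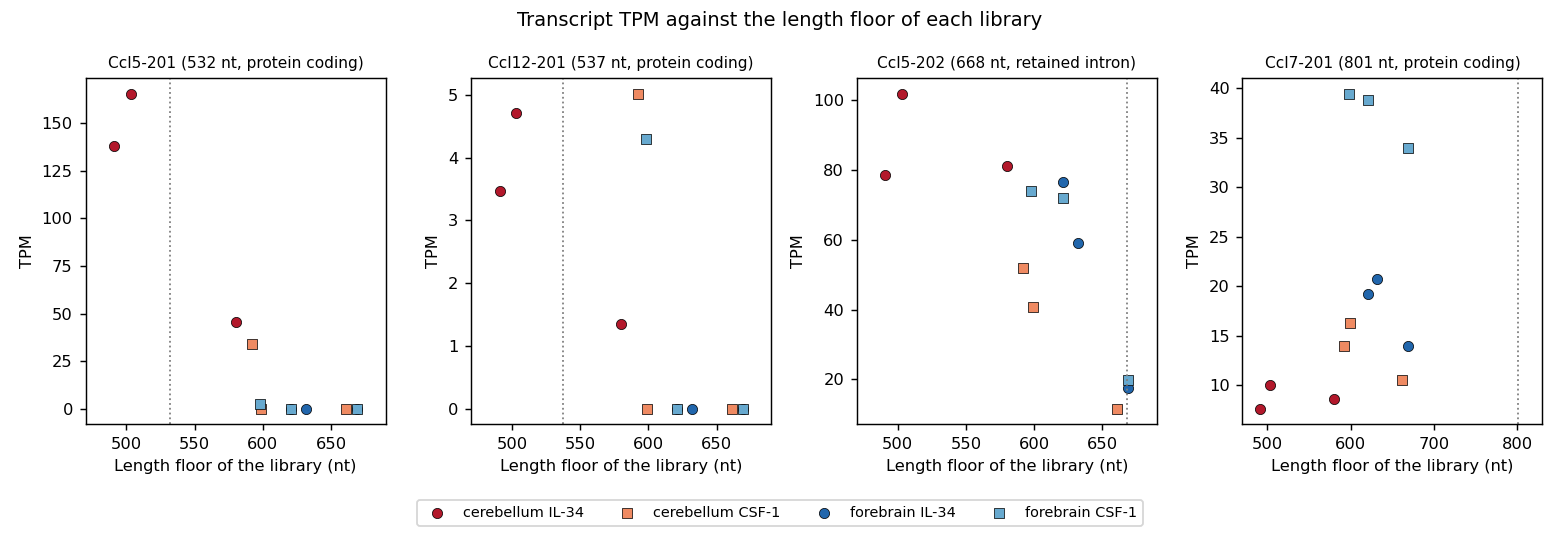
TPM of 4 transcripts in each library against the length floor of that library in nt; the dotted line marks the length of the transcript, and the floors run from 491 to 669 nt. Ccl5-201 and Ccl12-201 are at 0 in the 7 libraries with floors of 599 nt or more, Ccl5-202 lies at 11.6 to 19.7 TPM in the 3 libraries with floors of 661 nt or more, and Ccl7-201, of 801 nt, has the 3 forebrain libraries with CSF-1, at floors of 598 to 669 nt, above all others.

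Ccl3 and Ccl4, which encode the macrophage inflammatory proteins 1-alpha and 1-beta, each have 1 transcript in the table, of 766 and 660 nt. Ccl3 had 162, 158 and 140 TPM in cerebellum with IL-34 and 124, 124 and 149 TPM in cerebellum with CSF-1, against 112, 138 and 120 TPM in forebrain with IL-34 and 168, 146 and 125 TPM in forebrain with CSF-1. Its groups overlapped except for cerebellum against forebrain under IL-34, and it passed in none of the 6 comparisons. The log2 fold changes were 0.22 (SE 0.118, adjusted p = 0.235, limma) between ligands in cerebellum and -0.24 (SE 0.118, adjusted p = 0.407, limma) in forebrain. For cerebellum against forebrain they were -0.14 (SE 0.118, adjusted p = 0.517, limma) under CSF-1 and 0.31 (SE 0.118, adjusted p = 0.105, limma) under IL-34.

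Ccl4 had opposite ligand differences in the regions. It had 89.1, 86.9 and 68.4 TPM in cerebellum with IL-34 and 46.8, 59.1 and 62.6 TPM in cerebellum with CSF-1, so every IL-34 library lay above every CSF-1 library. In forebrain it had 52.5, 64.8 and 77.2 TPM with IL-34 and 106, 102 and 82.8 TPM with CSF-1, so every IL-34 library lay below. Of all genes tested, 36.2% did not overlap between ligands in cerebellum and 18.5% in forebrain. The log2 fold change of Ccl4 was 0.53 in cerebellum (SE 0.161, adjusted p = 0.0534, limma) and -0.58 in forebrain (SE 0.161, adjusted p = 0.114, limma), and neither passed. With the length floor as a covariate, the value was 0.03 in cerebellum, and in forebrain it was -0.52 and passed (adjusted p = 0.0109, limma). Removing the length and GC trends likewise gave 0.05 in cerebellum and -0.53 in forebrain (adjusted p = 0.0114 for the second, limma). In cerebellum the difference passed in 4 other settings, at 0.52 to 0.53, with adjusted p of 0.0308 with library weights, 0.044 with a minimum of 5 TPM, 0.0443 with coding transcripts alone and 0.0479 with transcripts of 600 nt or more (limma). Under CSF-1, Ccl4 was lower in cerebellum at 56.2 ± 8.27 TPM, against 97.1 ± 12.5 TPM in forebrain, a log2 fold change of -0.78 (SE 0.161, adjusted p = 0.0155, limma). This call was lost without the first cerebellar library with CSF-1 (adjusted p = 0.0589, limma) or without the first or second forebrain library with CSF-1 (adjusted p = 0.0671 and 0.0539, limma), and with no filter on low values (adjusted p = 0.0506, limma). Paired by floor, the first cerebellar library (661 nt) and the third forebrain library (669 nt) with CSF-1 had 46.8 and 82.8 TPM, and the second ones of each (599 and 598 nt) had 59.1 and 102 TPM. Under IL-34 the regional log2 fold change was 0.33 (SE 0.161, adjusted p = 0.195, limma).

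Between the regions, the difference of the ligand differences was tested as an interaction, which 0.145% of all genes passed and none of the 8 chemokines. For Ccl4 it was 1.11 (SE 0.228, unadjusted p = 0.000475, adjusted p = 0.13, limma), and it passed without the third library of cerebellum with IL-34 (adjusted p = 0.0315, limma). Without adjustment, 4 of the 8 had p below 0.05, the others being Ccl3 with 0.45, Ccl5 with 2.59 and Ccl9 with -0.24. Over all genes tested, 1505 of 12419 had an unadjusted p under 0.05.

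Ccl9, the most abundant gene of the cluster, is encoded by a transcript of 3006 nt, far longer than the floors. It had 229, 219 and 224 TPM in cerebellum with IL-34 and 288, 262 and 288 TPM in cerebellum with CSF-1, without overlap. In forebrain it had 244, 256 and 246 TPM with IL-34 and 271, 244 and 271 TPM with CSF-1, with overlap. It was lower with IL-34 in cerebellum, with a log2 fold change of -0.32 (SE 0.0557, adjusted p = 0.00852, limma), and over the mean of both regions with -0.20 (SE 0.0394, adjusted p = 0.0102, limma). The median log2 fold change of all 4318 tested genes of 3000 nt or more was -0.15 between ligands in cerebellum, and that of all genes was -0.10. With length and GC trends removed, Ccl9 had -0.17 in cerebellum and did not pass (adjusted p = 0.0951, limma), nor did it under median-of-ratios scaling, with -0.21 (adjusted p = 0.0619, limma), with the length floor as a covariate, with -0.26 (adjusted p = 0.249, limma), or without the 2 libraries of lowest floor, with -0.31 (adjusted p = 0.160, limma). The mean over both regions also missed the threshold in 5 alternative settings, with log2 fold changes between -0.19 and -0.11 and adjusted p between 0.0603 and 0.123 (limma). In forebrain its log2 fold change was -0.07 (SE 0.0557, adjusted p = 0.622, limma), and for cerebellum against forebrain it was 0.09 under CSF-1 (adjusted p = 0.354, limma) and -0.15 under IL-34 (adjusted p = 0.101, limma).

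Ccl6, the neighbour of Ccl9, had 37.6, 40.8 and 30.5 TPM in cerebellum with IL-34 and 22.3, 27.4 and 39.97 TPM in cerebellum with CSF-1. In forebrain it had 27.1, 31.9 and 27.8 TPM with IL-34 and 37.7, 26.3 and 27.3 TPM with CSF-1, and the groups overlapped in all 4 comparisons. Its log2 fold changes ranged from -0.06 to 0.31 over the 4 comparisons, with adjusted p between 0.323 and 0.944 (limma). The summed level hid a split between transcripts. The coding transcript Ccl6-201 (1440 nt) had 22.6, 19.1 and 19.8 TPM in cerebellum with IL-34 and 22.3, 21.6 and 23.9 TPM in cerebellum with CSF-1, against 27.1, 28.2 and 27.8 TPM in forebrain with IL-34 and 26.8, 23.1 and 27.3 TPM in forebrain with CSF-1. Under IL-34 it thus did not overlap between regions, and with coding transcripts alone Ccl6 was lower in cerebellum, with a log2 fold change of -0.42 (adjusted p = 0.00671, limma), where the sum of all transcripts gave 0.31. Ccl6-202 (776 nt) is annotated as a retained-intron transcript, but holds only 71 of the 3061 bases of the first intron and none of the others. It had 15.04, 21.7 and 10.7 TPM in cerebellum with IL-34 and 0, 5.79 and 16.1 TPM in cerebellum with CSF-1. In forebrain Ccl6-202 had 0, 3.67 and 0 TPM with IL-34 and 10.9, 3.20 and 0 TPM with CSF-1.

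The nearest patterns to the other genes were found in the same way. For Ccl5 they were those of Rpl37a, Lrpap1 and Smdt1, with r of 0.98 each, and for Ccl12 those of Romo1 with 0.91 and of Mrps28 and Brox with 0.89 each. Rpl37a and Romo1 have transcripts of 558 and 565 nt and were, like Ccl12, listed at 0 in some libraries. For Ccl3 they were Trappc1 with 0.94, Commd4 with 0.89 and Lgals1 with 0.88, and for Ccl4 they included Selm with 0.93 and U2af1 with 0.91. For Ccl6 they were Esd with 0.91, Pgpep1 with 0.90 and Glrx5 with 0.88, and for Ccl9 Emp2 with 0.94, then Nap1l1 and Pcdh7 with 0.93. No member was among the nearest of any other but Ccl2 for Ccl7.

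Counted over the cluster, 3 of the 8 genes did not overlap between ligands in forebrain, against 18.5% of all genes tested, and 5 of 8 did not in cerebellum, against 36.2%. Between regions, 3 of 8 did not overlap under CSF-1, against 29.4% of all genes, and 6 of 8 did not under IL-34, against 32.9%. The 6 include Ccl12, which is listed at 0 throughout forebrain with IL-34. It met the filter for testing only through its values in cerebellum with IL-34, so its separation there is not counted as a result. Ccl12 also enters the medians that follow. The median log2 fold change of the 8 was 0.26 between ligands in cerebellum, where that of all genes was -0.10, and -0.41 in forebrain, where that of all genes was -0.04. Between regions it was -0.30 under CSF-1, against 0.03 for all genes, and 0.31 under IL-34, against -0.02. Among genes under 600 nt, the class of Ccl12, the median in cerebellum between ligands was 1.74, and among the 241 genes of 600 nt to under 700 nt, the class of Ccl4 and Ccl5, it was 0.49. Among the medians given here, the positive ones of the 8 stand in the 2 comparisons that involve cerebellum with IL-34, the group of lowest floors. The part of the floors in these medians was not tested.

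The receptors of these ligands were measured in the same libraries. Of 8 receptor and decoy genes listed, 4 reached the level for testing. Ccr1 lay between 23.3 and 34.0 TPM and passed in none of the 6 comparisons. Ccr2, the receptor of Ccl2, Ccl7 and Ccl12, did not exceed 0.867 TPM in any library. Ccrl2, an atypical receptor that binds chemerin, was higher with IL-34 at 13.3 TPM in cerebellum, against 9.89 TPM with CSF-1 (log2 fold change 0.39, SE 0.096, adjusted p = 0.0272, limma), and at 15.9 TPM in forebrain, against 10.2 TPM (0.60, SE 0.096, adjusted p = 0.0141, limma). Ccr3, an eotaxin receptor, was lower in cerebellum under CSF-1 (log2 fold change -0.44, adjusted p = 0.0467, limma) and under IL-34 (-0.45, adjusted p = 0.0269, limma). Of 9 CC chemokine genes of other chromosomes, Ccl24, Ccl25 and Ccl27a could be tested, and none passed in any comparison. Ccl25, a thymic chemokine that binds Ccr9, lay between 5.74 and 13.0 TPM.

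Among 15 chemokine genes of other classes, 10 could be tested. Cxcl16, which encodes a membrane-anchored ligand of Cxcr6, was higher with IL-34 in cerebellum at 419 TPM, against 363 TPM with CSF-1, and in forebrain at 476 TPM, against 411 TPM (log2 fold changes 0.21 and 0.21, adjusted p = 0.0157 and 0.0432, limma). It was the only one of the 10 to pass between ligands in either region taken alone. In cerebellum against forebrain under IL-34, Cxcl9, Cxcl10, Cxcl1 and Cxcl16 were lower and Cxcl14 was higher. Under CSF-1, Cxcl9 (log2 fold change -0.69, adjusted p = 0.0348, limma) and Cxcl16 (-0.18, adjusted p = 0.0341, limma) were lower in cerebellum and none was higher. Cxcl10, an interferon-induced ligand of Cxcr3, averaged 11.9 TPM in cerebellum and 27.9 TPM in forebrain under IL-34 (log2 fold change -1.17, SE 0.276, adjusted p = 0.0189, limma). Under the same ligand, the neutrophil attractant Cxcl1 averaged 6.28 TPM in cerebellum and 12.4 TPM in forebrain (log2 fold change -0.86, SE 0.22, adjusted p = 0.0263, limma).

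The NF-kB pathway drives transcription of many chemokine genes. Of its 14 listed genes, all tested, 0 passed between ligands in forebrain and 1 in cerebellum, where Chuk, an IkB kinase subunit, was lower with IL-34 (log2 fold change -0.20, SE 0.0574, adjusted p = 0.0423, limma). Between regions, Nfkbie was higher in cerebellum under CSF-1 (0.27, adjusted p = 0.0437, limma), and under IL-34 Rela was higher (0.17, adjusted p = 0.0344, limma) and Nfkbia lower (-0.27, adjusted p = 0.0439, limma). The median log2 fold change of the list was -0.016 between ligands in cerebellum and 0.038 in forebrain, where those of all genes were -0.10 and -0.04. In forebrain, 1 of the 9 inflammatory genes tested was lower with IL-34 and 0 were higher, and in cerebellum 1 was lower and 1 was higher. Ptgs2, which encodes cyclooxygenase-2, was lower with IL-34 in cerebellum at 17.4 TPM, against 29.2 TPM with CSF-1 (log2 fold change -0.72, SE 0.078, adjusted p = 0.000787, limma), and in forebrain at 11.4 TPM, against 15.7 TPM (-0.43, SE 0.078, adjusted p = 0.0278, limma). Between regions it went the other way from Ccl2, being higher in cerebellum under both ligands (log2 fold changes 0.57 under IL-34 and 0.86 under CSF-1, adjusted p = 0.00108 and 9.40e-05, limma). Cd83, a surface protein of activated antigen-presenting cells, was higher with IL-34 in cerebellum at 149 TPM, against 104 TPM (0.51, SE 0.0839, adjusted p = 0.00636, limma). Il1b averaged at most 7.99 TPM in any group and was lower in cerebellum under both ligands, with log2 fold changes of -0.50 under IL-34 and -0.56 under CSF-1 (adjusted p = 0.0253 and 0.0245, limma). The adhesion molecule Vcam1 was lower in cerebellum under IL-34 (-1.28, adjusted p = 0.00901, limma). The medians of the 9 were -0.027 between ligands in cerebellum and -0.059 in forebrain.

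Checks of the labelled cell type concern all of these values. The 12 microglial markers were all detected, with summed levels of 7368 to 8091 TPM over the 12 libraries. The 4 ependymal and choroid plexus markers summed to 10.3 to 39.7 TPM in cerebellum and 1.51 to 2.14 TPM in forebrain. Most of the cerebellar sum was Ttr, at 8.95 to 37.95 TPM, whereas Foxj1 of the same list was lower in cerebellum under CSF-1 (log2 fold change -0.57, adjusted p = 0.0396, limma) and under IL-34 (-0.51, adjusted p = 0.0397, limma). The 6 neuronal markers summed to 0.381 to 1.30 TPM in cerebellum and 1.74 to 4.58 TPM in forebrain. The 9 markers of the oligodendrocyte lineage summed to 135 to 170.4 TPM in cerebellum and 123 to 149.6 TPM in forebrain, and the 5 endothelial markers to 7.85 to 10.6 TPM in cerebellum and 4.82 to 8.496 TPM in forebrain. The part of these cells in the regional values was not tested.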

How the data were processed

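RNA of 12 microglia libraries, 3 independent cultures per group, was amplified with a low-input kit and quantified by kallisto 0.43.0 on GRCm38, per the submitters' processing notes. The authors deposited TPM per Ensembl transcript for 115879 transcripts. The sources used here name neither filters nor the annotation release, and TPM keeps no read depth, so depth is unknown. The labels' extraction text speaks of human tissue, whereas every library is labelled mouse.

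TPM were summed per gene, log2-transformed with a pseudocount of 1 and kept where at least 3 libraries reached 1 TPM, which left 12419 genes. The limma test (version 3.58.1, R 4.3.3; 4 group means, trended prior variance, two-sided, Benjamini-Hochberg adjustment over all genes) gave 6 contrasts. The procedure was tested on simulated data. Transcript lengths and sequences came from GENCODE M21, which matched 98.6% of the transcripts. The length floor was computed from transcripts of 5 TPM or more. No 2 libraries were identical. Replicate numbers are not stated to pair samples.

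The members, gene lists and tests were chosen with earlier results of these data known. All 8 members are named. Genes of other lists are named where they passed the threshold or are receptors of the members, and the 3 nearest patterns were taken by Pearson's r. A few items are not reported here. Alternatives covered pseudocounts, filters, scaling, library weights, transcript classes, length and GC trends, the length floor, a replicate block and leaving out libraries.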

Additional observations from a re-analysis of the deposited data

Results flagged for a closer look

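Ccl4 had ligand differences of opposite direction in the regions. Every cerebellar library with IL-34 (68.4 to 89.1 TPM) lay above every cerebellar library with CSF-1 (46.8 to 62.6 TPM), and every forebrain library with IL-34 (52.5 to 77.2 TPM) lay below every forebrain library with CSF-1 (82.8 to 106 TPM). The difference between the regions was 1.11 on the log2 scale (SE 0.228) and did not pass after adjustment over all genes (adjusted p = 0.13, limma). Over the alternative settings its value ranged from 0.55 to 1.17, with adjusted p between 0.0659 and 0.827. The length floors were 491 to 580 nt in cerebellum with IL-34, 592 to 661 nt in cerebellum with CSF-1, 621 to 669 nt in forebrain with IL-34 and 598 to 669 nt in forebrain with CSF-1, and the Ccl4 transcript is 660 nt long. With the length floor as a covariate, the ligand difference of Ccl4 was 0.03 in cerebellum and -0.52 in forebrain. The third cerebellar libraries, of nearly equal floor, had 68.4 TPM with IL-34 and 62.6 TPM with CSF-1. Of all genes tested, 36.2% did not overlap between ligands in cerebellum and 18.5% in forebrain.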

How the results depend on the processing

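Of 1180 recomputed values, 1081 kept their direction and side of the threshold, or their count within 1.5 times. The number of chemokine genes past the threshold between ligands in cerebellum was 2; it was 5 with a minimum of 5 TPM or with library weights, 4 with transcripts of 600 nt or more, with coding transcripts alone or without the 3 libraries of highest length floor, and 1 under median-of-ratios scaling, with the floor as a covariate or without the 2 libraries of lowest floor. In forebrain it was 2, and became 1 with no filter or coding transcripts alone and 0 when fitted on the groups compared alone. For cerebellum against forebrain under IL-34 it was 2, and became 4 on the groups compared alone and 1 without the 2 libraries of lowest floor. Over all genes tested, the calls between ligands in cerebellum were 497 higher and 1628 lower with library weights, 19 and 18 with the floor as a covariate, and 25 and 42 without the 2 libraries of lowest floor, against 373 and 1220 as reported. In forebrain 0 of 12419 genes passed on the groups compared alone, and 30 were higher and 57 lower with no filter. The 2 settings that omit libraries by floor were chosen after seeing the data. Leaving out each library gave 2 to 5 genes between ligands in cerebellum, 1 to 2 in forebrain, 3 to 3 over both regions, 0 to 1 for the interaction, and between regions 2 to 3 under CSF-1 and 2 to 3 under IL-34. A replicate block left the counts at 2 in cerebellum, 2 in forebrain, 3 over both regions, 0 for the interaction, 3 under CSF-1 and 2 under IL-34. For same-numbered libraries, the deviations of all genes tested from their group means had correlations between -0.454 and 0.458. The numbers were therefore not read as pairs. Over all genes the block gave 254 higher and 732 lower between ligands in cerebellum and 31 higher and 52 lower in forebrain, against 53 and 96 without it.

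Log2 fold changes changed sign as follows, and the cause was not tested. With the floor as a covariate they were -0.0416 for Ccl3 and -0.11 for Ccl6 between ligands in cerebellum, 0.14 for Ccl5 in forebrain, and -0.0132 for Ccl3, -0.29 for Ccl4, -0.71 for Ccl5 and -0.20 for Ccl6 between regions under IL-34. With length and GC trends removed they were -0.13 for Ccl3 between ligands in cerebellum, 0.0382 for Ccl6 between regions under CSF-1 and -0.0906 for Ccl4 under IL-34. With coding transcripts alone they were -0.14 for Ccl6 in cerebellum, 0.10 for Ccl6 in forebrain, 1.14 for Ccl5 between regions under CSF-1, and 0.22 for Ccl2 and -0.42 for Ccl6 under IL-34. With library weights they were 0.053 for Ccl5 and 0.0159 for Ccl6 in forebrain and 0.0076 for Ccl6 between regions under CSF-1, where omitting the 3 libraries of highest floor gave 0.0708. Quantile normalization gave 0.0091 for Ccl6 in forebrain. Leaving out libraries moved Ccl5 between -0.76 and 0.48 and Ccl6 between -0.15 and 0.10 in forebrain, and Ccl5 between -1.09 and 0.30 and Ccl6 between -0.27 and 0.14 between regions under CSF-1. Of these, only Ccl2 under IL-34 had passed with all transcripts, and only Ccl6 under IL-34 passed with coding transcripts alone.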
